A study of Mus musculus with 6 samples.

Results

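Interferon-stimulated genes outside the guanylate-binding protein and interferon regulatory factor families were read in 2 kinds of splenic regulatory T cell (Treg, a CD4+ T cell that expresses the transcription factor Foxp3 and restrains immune responses). The members were 45 gene symbols given as a list: 41 interferon-stimulated genes of antiviral defence, cell-autonomous immunity and interferon feedback, and the 4 subunits of the receptors for type I interferon and interferon-γ. All 45 were found by symbol in the deposited table of 15944 genes, on 49 lines, because Tgtp2, Ifi47 and Irgm1 each stood on several gene identifiers. Counts over the 45 members take each symbol's line that the GENCODE M21 annotation holds, and the other 4 lines are given with the immunity-related GTPases. The list names symbols and uses no values of these libraries, but it was chosen with earlier results of these data known. Tregs positive for a GFP reporter of the transcription factor RORγt (RORγt+ Tregs, 3 libraries) were set against Tregs that lacked the RORγt reporter and were stained positive for the chemokine receptor CCR6 (CCR6+RORγt- Tregs, 3 libraries). Cells of both sorts came from spleens of C57BL/6 mice, carried CD3 and CD4 and were positive for an RFP reporter of Foxp3, and the mice are described as naive. The sources used here give no age or sex, do not say whether animals were pooled, and tie no library to an animal. The p-values therefore reflect variation among the 6 libraries, and that variation may be technical.

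Type I interferons bind a receptor made of Ifnar1 and Ifnar2, whose kinases Jak1 and Tyk2 start a signal that leads, through a complex with Stat2 and Irf9, to the interferon-stimulated response element (ISRE) of target promoters. Interferon-γ binds Ifngr1 and Ifngr2, and its signal acts at gamma-activated sites (GAS). Many targets answer to both pathways, and resting T cells hold a basal level of them without infection.

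Promoter sequence was read first. It was not used to choose the members, but most of them were listed as interferon-stimulated genes. Since interferon signals act at the ISRE and GAS, the shares below are not independent of that choice. RefSeq windows on GRCm38.p6, from 250 bases before to 50 bases after each start site, were held for 33 of the 45 members (37 windows, since some genes have several start sites). The ISRE was searched on both strands as GAAA, any 2 bases and GAAA again, and the GAS as TTCNNNGAA, which is its own reverse complement. An ISRE match lay in 18 of 33 member genes (54.5%), against 3.99% of the 27025 genes with a window, and a GAS match in 14 of 33 (42.4%), against 9.55% of all. Counted by role over genes with a window, 5 of 6 immunity-related GTPases and 3 of 3 nucleic acid sensors held an ISRE match. The share was 2 of 3 in IFIT genes, 2 of 3 in IFITM genes and 2 of 4 in OAS genes. It was 2 of 4 in the ISG15 pathway and regulators, 2 of 6 in antiviral effectors and 0 of 4 in receptor subunits. The ISRE and GAS matches overlapped in Ifitm3 and Bst2. A match describes letters and is not a site shown to be bound.

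The antiviral genes are shown for the arrangement of their ISRE matches. Capitals mark the ISRE, which reads GAAA to GAAA on the gene's own strand in Isg15 and Oas3 and on the opposite strand, as TTTC to TTTC, in Ifit1 and Ifit3. The stretches are Isg15 (chr4:156200855-156200916, minus strand), Ifit1 (chr19:34640765-34640833, plus strand), Ifit3 (chr19:34583353-34583436, plus strand) and Oas3 (chr5:120777705-120777754, minus strand). Isg15 carried 3 overlapping matches in a run, Ifit1 and Ifit3 carried 2 separate ones, and Oas3 carried 1.
Isg15: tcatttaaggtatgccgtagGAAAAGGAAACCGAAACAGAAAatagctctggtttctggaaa
Ifit1: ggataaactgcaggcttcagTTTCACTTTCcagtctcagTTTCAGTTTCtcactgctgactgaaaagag
Ifit3: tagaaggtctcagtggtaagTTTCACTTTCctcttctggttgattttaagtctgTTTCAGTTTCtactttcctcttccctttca
Oas3: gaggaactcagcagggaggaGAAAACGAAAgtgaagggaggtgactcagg

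The immunity-related GTPases are shown because 4 of them shared a joint arrangement, a GAS match followed after 2 bases by an ISRE match. Capitals mark the GAS first and then the ISRE. The stretches lie on chromosome 11 at chr11:48992304-48992344 (Tgtp1, minus strand), chr11:49064263-49064303 (Tgtp2, minus strand), chr11:58199501-58199541 (Igtp, plus strand) and chr11:58214892-58214932 (Irgm2, plus strand). Irgm1 (chr11:48871425-48871460, minus strand) is set beside them and had 2 overlapping ISRE matches with no GAS match.
Tgtp1: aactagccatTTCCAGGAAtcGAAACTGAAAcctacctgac
Tgtp2: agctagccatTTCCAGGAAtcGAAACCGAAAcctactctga
Igtp: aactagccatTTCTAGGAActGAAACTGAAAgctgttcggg
Irgm2: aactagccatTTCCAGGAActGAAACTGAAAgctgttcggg
Irgm1: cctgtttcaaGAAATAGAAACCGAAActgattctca

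Searched as a GAS, any 2 bases and an ISRE on both strands, a pattern written after these sequences were seen, the arrangement occurred in 5 of 32851 promoter windows (0.0152%). The genes were Tgtp1, Tgtp2, Igtp and Irgm2 and, outside the members, Gm12185. These genes are neighbours or close relatives in sequence, so their matches are not independent of each other. Bst2, at chr8:71537577-71537618 on the minus strand, had 2 ISRE matches, the first of which overlapped a GAS match and the second of which began 3 bases after it.
Bst2: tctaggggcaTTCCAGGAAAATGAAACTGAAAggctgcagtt

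**Figure D1:**
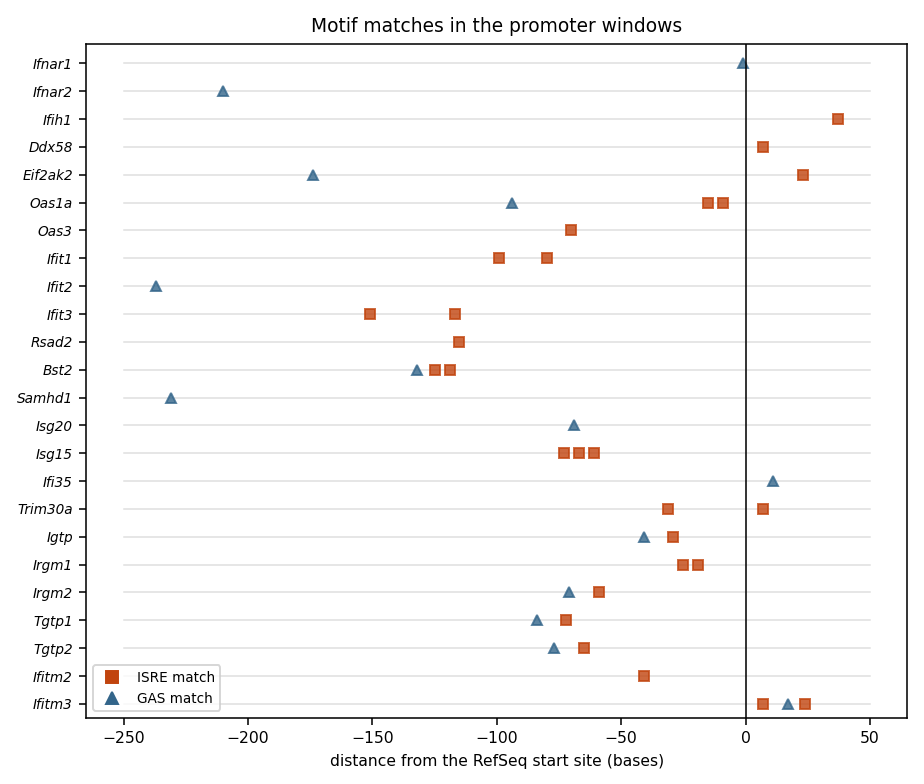
Positions of ISRE matches (squares) and GAS matches (triangles) in the promoter windows of the members that hold any, as the distance of the match's centre from the RefSeq start site in bases; Trim30a has matches in 2 windows, each set from its own start site. Tgtp1, Tgtp2, Igtp and Irgm2 repeat the same GAS and ISRE spacing, and none of the 4 receptor subunits has an ISRE match.

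Values are the normalized counts per gene deposited by the authors, which are not raw reads. Column totals lay between 11325900 and 11890770, and the step between low values corresponds to some 9220000 to 14500000 reads in a library, fewest in RORγt+ replicate 3. Only 51.3% to 68.9% of low values lay near a whole number of steps, so these depths and their order are rough. RORγt+ replicate 3 stood apart. It listed 1247 genes at 0, where the others listed 438 to 638, and its log2 values correlated with theirs at 0.932 to 0.938. The 6 Treg markers (Foxp3, Il2ra, Ctla4, Ikzf2, Cd4 and Cd3e) summed to between 42422 and 44301 in RORγt+ libraries and between 40372 and 42758 in CCR6+RORγt- libraries. The sum does not show single markers. Ikzf2 had 6358, 6181 and 1435 in RORγt+ replicates 1, 2 and 3, against 4784, 6205 and 7969 in CCR6+RORγt- libraries. Sums for markers of other cells were small beside the Treg sums. The 5 B cell markers summed to 229 to 503 in RORγt+ and 182 to 349 in CCR6+RORγt- libraries, and 4 measured of 6 monocyte and macrophage markers to 58.5 to 146 in RORγt+ and 37.9 to 59.1 in CCR6+RORγt- libraries. The 4 measured of 6 plasmacytoid dendritic cell markers, of which Bst2 is a member here, summed to 558 to 747 in RORγt+ and 533 to 553 in CCR6+RORγt- libraries, without overlap. Among them Ccr9, also a homing receptor of T cells, had 240, 212 and 133 in RORγt+ against 78.1, 103 and 104 in CCR6+RORγt- libraries, and Siglech, which defines these cells, stood at 0 to 2.38 in RORγt+ and 2.53 to 3.65 in CCR6+RORγt- libraries. Red cell transcripts reached 4267 in CCR6+RORγt- replicate 2, while the remaining libraries had 53.6 to 868. The part of such cells in the values below was not tested.

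No member passed the test between the sorts. Limma on log2(value + 1), with Benjamini-Hochberg adjustment over all 15944 genes, called 0 of 45 members, where it called 0.564% of all genes (0.320% higher and 0.245% lower in RORγt+ Tregs). The smallest adjusted p among the members was 0.221, for Ly6a. At an unadjusted p under 0.05 there were 10 members, or 22.2% against 10.9% of all genes. Of these, 8 had a positive fold change (4.80% of all genes did so at that p) and 2 a negative one (6.12% of all genes). The log2 fold change, RORγt+ minus CCR6+RORγt-, had a median of 0.17 over the members and −0.011 over all genes. It was above 0 in 33 of 45 members (73.3%) and in 48.8% of all genes, and among the 45 only Ly6a exceeded 1 in size. Over all 49 lines, 36 were above 0 and 2 exceeded 1 in size, the other being the second line of Irgm1. The 95% interval of the fold change lay wholly between −1 and 1 in 33 of 45 members, so a difference of that size is outside the interval for those. For the other 12 it is not.

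The values of the sorts did not overlap in 15 members. All 3 RORγt+ values lay above all 3 CCR6+RORγt- values in 13 members (28.9%, against 8.31% of all genes), and below them in 2 members, Ifnar2 and Ifih1 (4.44%, against 9.81%). The highest of the 6 values came from a RORγt+ library in 38 of 45 members (84.4%, against 59.9% of all genes). The mean log2 level over the 45 members was 9.22, 9.28 and 9.15 in RORγt+ replicates 1, 2 and 3, and 9.03, 9.06 and 9.09 in CCR6+RORγt- replicates 1, 2 and 3. Among members with a promoter window, the 18 genes with an ISRE match had a median log2 fold change of 0.12 (12 above 0) and the 15 without one a median of 0.15 (10 above 0). These counts, means and medians describe the members and carry no test. In bulk RNA, a smaller share of cells that hold a transcript cannot be told apart from less of it per cell.

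**Figure D2:**
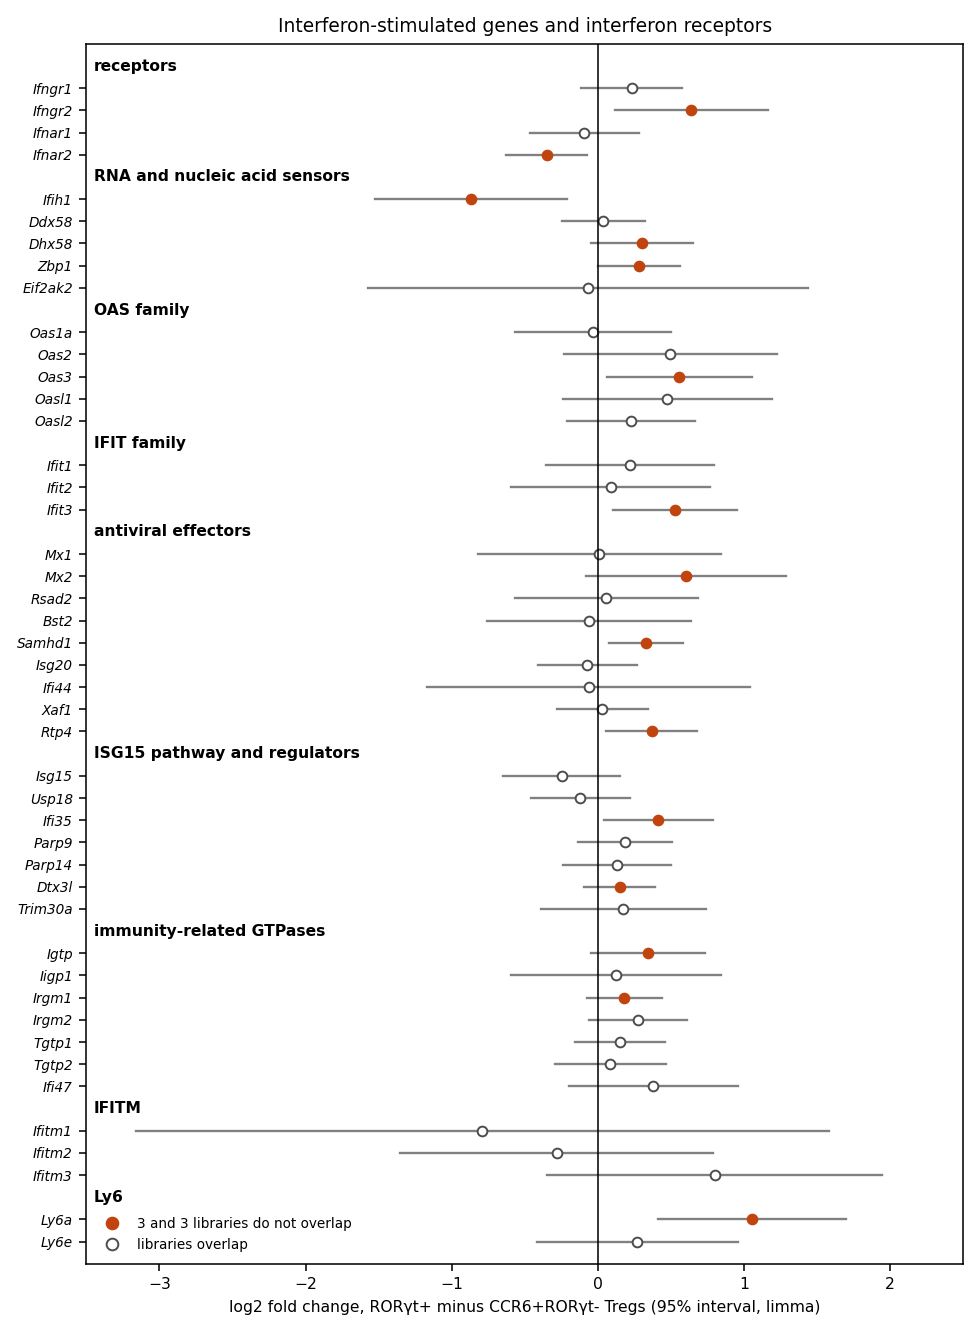
Log2 fold change of each of the 45 members (RORγt+ minus CCR6+RORγt- Tregs, points) with its 95% interval from limma (lines), grouped by role; filled points mark members whose 3 and 3 values do not overlap. Most points lie right of 0 and within 1 of it, no member passed the adjusted threshold, and Ly6a at 1.05 and Ifih1 at −0.87 reach farthest among members with non-overlapping values.

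The receptor subunits gave no common direction. Ifngr2, the signalling chain of the interferon-γ receptor, had 295, 397 and 352 normalized counts in RORγt+ libraries, against 251, 168 and 259 in CCR6+RORγt- libraries. Each RORγt+ value lay above each CCR6+RORγt- value, and the log2 fold change was 0.64 (95% interval 0.11 to 1.16, adjusted p = 0.364). Its ligand-binding partner Ifngr1 had 2952, 3123 and 4088 in RORγt+ libraries, against 2983, 2809 and 2773 in CCR6+RORγt- libraries. These overlapped, with RORγt+ replicate 3 highest, and the log2 fold change was 0.23 (−0.11 to 0.58).

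Ifnar2, the type I interferon receptor chain that Usp18 acts on, went the other way, with 908, 823 and 906 in RORγt+ libraries against 1140, 1150 and 1070 in CCR6+RORγt- libraries. The values did not overlap, and the log2 fold change was −0.35 (−0.63 to −0.07, adjusted p = 0.343). Ifnar1 had 2262, 1853 and 1807 in RORγt+ libraries and 2414, 1776 and 2144 in CCR6+RORγt- libraries, which overlapped throughout. Ifnar2, Ifnar1 and Ifngr2 are neighbours on chromosome 16 (91372783 to 91405589, 91485238 to 91507441 and 91547072 to 91565623, GRCm38), together with Il10rb, a chain of the IL-10 and type III interferon receptors. Il10rb averaged 925 ± 87.9 in RORγt+ and 1039 ± 23.5 in CCR6+RORγt- libraries (SD, n = 3 each). Its RORγt+ values all lay below its CCR6+RORγt- values, at a log2 fold change of −0.17 (−0.47 to 0.12, limma adjusted p = 0.711). Part of Ifnar2's sequence is not its own, as 8.5% of its 31-base windows occur in transcripts of other genes, chiefly the overlapping model Gm21970.

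Among the nucleic acid sensors, Ifih1 (MDA5, the receptor for long double-stranded RNA, chr2:62595798-62646255) had 584, 490 and 277 in RORγt+ libraries against 670, 806 and 895 in CCR6+RORγt- libraries. No values overlapped, and replicate 3 was the lowest of the RORγt+ libraries. The log2 fold change was −0.87 ± 0.28 (SE, 95% interval −1.53 to −0.21) and did not pass over all genes (limma adjusted p = 0.321). It passed when each library was corrected for GC content and transcript length (−0.83, adjusted p = 0.0382), an alternative chosen after the data were seen. Without RORγt+ replicate 3 it was −0.55, and over all 17 alternatives the adjusted p ran between 0.0382 and 0.706.

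Ddx58 (RIG-I, which detects viral RNA with a free triphosphate end) had 1664, 1577 and 1433 in RORγt+ libraries and 1498, 1429 and 1626 in CCR6+RORγt- libraries. Its log2 fold change of 0.037 had an interval of −0.25 to 0.32, among the narrower ones here. Dhx58 (LGP2, which modulates these sensors) had 419, 405 and 497 in RORγt+ libraries against 345, 349 and 371 in CCR6+RORγt- libraries, without overlap (0.30, −0.04 to 0.65), and the model Dhx58os lies on its opposite strand. Thus Ifih1 and Dhx58, both without overlap, pointed in opposite directions, and Ddx58 overlapped.

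Zbp1, a sensor of Z-form nucleic acids that can trigger cell death, was the most abundant sensor per kilobase of transcript. It had 2365, 2286 and 2011 in RORγt+ libraries against 1925, 1747 and 1807 in CCR6+RORγt- libraries, without overlap (log2 fold change 0.28 ± 0.12, SE, adjusted p = 0.458). Eif2ak2 (PKR, the kinase that halts translation on double-stranded RNA) had 788, 1199 and 181 in RORγt+ libraries and 422, 615 and 758 in CCR6+RORγt- libraries. Its RORγt+ libraries held both the highest and the lowest of the 6 values. The log2 fold change was −0.067 with an interval of −1.57 to 1.44, and it was 0.74 without RORγt+ replicate 3 and 0.12 without CCR6+RORγt- replicate 3.

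Several proteins of the OAS family make oligoadenylates that activate RNase L. Oas3 had 526, 761 and 917 in RORγt+ libraries against 504, 467 and 487 in CCR6+RORγt- libraries. The RORγt+ values all lay on top but were widely spread (log2 fold change 0.56, 0.06 to 1.05, adjusted p = 0.4). Oas1a had 344, 387 and 599 in RORγt+ libraries and 492, 430 and 403 in CCR6+RORγt- libraries, and 68.8% of its windows also occur in other genes, chiefly its paralog Oas1g, so its count is uncertain. Oasl2 had 189, 243 and 246 in RORγt+ libraries and 193, 175 and 210 in CCR6+RORγt- libraries. Oas2 and Oasl1 averaged under 100 in each sort, with log2 fold changes of 0.49 and 0.47. Without RORγt+ replicate 3, whose values lay near the CCR6+RORγt- ones in these 2 genes, the fold changes were 0.77 and 0.75.

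The IFIT proteins bind viral RNA and curb its translation, and their genes lie side by side on chromosome 19. Ifit3 had 458, 585 and 393 in RORγt+ libraries against 328, 342 and 312 in CCR6+RORγt- libraries, without overlap (log2 fold change 0.53 ± 0.18, SE, adjusted p = 0.35). Of its windows, 61.8% also occur in other genes, chiefly Ifit3b, so reads of the pair may be split. Ifit1 had 820, 802 and 444 in RORγt+ libraries and 554, 554 and 601 in CCR6+RORγt- libraries. Ifit2 had 1218, 1045 and 556 in RORγt+ libraries and 738, 819 and 976 in CCR6+RORγt- libraries. In Ifit1 and Ifit2 alike, RORγt+ replicates 1 and 2 lay above every CCR6+RORγt- library and replicate 3 below every one. Without replicate 3 their log2 fold changes were 0.51 and 0.43, and neither passed.

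Of the 9 antiviral effectors, Samhd1, a dNTP hydrolase that restricts retroviruses, was by far the most abundant per kilobase. It had 17723, 18326 and 16107 in RORγt+ libraries against 13747, 13922 and 13731 in CCR6+RORγt- libraries. The CCR6+RORγt- values were tightly packed and every RORγt+ value lay above them (log2 fold change 0.33 ± 0.11, SE, adjusted p = 0.327, with a range of 0.0574 to 0.755 over the alternatives). Rtp4, a receptor transporter protein induced by interferon, had 666, 655 and 584 in RORγt+ libraries against 492, 513 and 468 in CCR6+RORγt- libraries. It did not overlap either (0.37, 0.06 to 0.68), and 12.5% of its windows occur in the overlapping model Gm45338.

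Mx2, a dynamin-like GTPase, had 49.7, 65.1 and 60.4 in RORγt+ libraries against 49.0, 31.4 and 35.1 in CCR6+RORγt- libraries, without overlap (0.61, −0.08 to 1.29). Mx1, which is defective in C57BL/6 mice, had 107, 165 and 64.0 in RORγt+ libraries and 109, 118 and 86.8 in CCR6+RORγt- libraries, and its log2 fold change was 0.01. The exonuclease Isg20 had 507, 576 and 459 in RORγt+ libraries and 556, 547 and 511 in CCR6+RORγt- libraries, overlapping throughout. Bst2 (tetherin, which holds budding virions at the membrane) had 305, 271 and 602 in RORγt+ libraries and 420, 360 and 375 in CCR6+RORγt- libraries. Here RORγt+ replicates 1 and 2 lay below every CCR6+RORγt- library and replicate 3 above, and the fold change was −0.063 with all libraries and −0.42 without replicate 3. Rsad2 (viperin), Xaf1 and Ifi44 had fold changes of 0.059, 0.031 and −0.063.

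Isg15, the ubiquitin-like modifier that interferon induces, and Usp18, the protease that removes it, were the members of the feedback and modifier group with negative fold changes. Isg15 had 261, 243 and 213 in RORγt+ libraries and 317, 255 and 281 in CCR6+RORγt- libraries (−0.25, −0.65 to 0.15). Usp18 had 357, 363 and 336 in RORγt+ libraries and 399, 346 and 405 in CCR6+RORγt- libraries (−0.12, −0.46 to 0.22). Both overlapped between the sorts. Ifi35 had 651, 631 and 837 in RORγt+ libraries against 566, 486 and 530 in CCR6+RORγt- libraries, without overlap (0.41, 0.04 to 0.79), and 12.8% of its windows occur in Gm11626 on the opposite strand.

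Dtx3l, a ubiquitin ligase that works with Parp9, had 3688, 3748 and 3437 in RORγt+ libraries against 3293, 3217 and 3278 in CCR6+RORγt- libraries. These did not overlap, at a fold change of 0.15 (−0.09 to 0.39). Parp9 overlaps Dtx3l on the opposite strand on chromosome 16 and had a fold change of 0.18, and whether reads were assigned by strand is not given in the sources used here. Parp14, an ADP-ribosyltransferase, had 3730, 3891 and 2882 in RORγt+ libraries and 3148, 2841 and 3564 in CCR6+RORγt- libraries. Trim30a had 2251, 2148 and 1246 in RORγt+ libraries and 1422, 1577 and 1871 in CCR6+RORγt- libraries. In Trim30a, as in Ifit1 and Ifit2, RORγt+ replicate 3 was the lowest of the 6 and replicates 1 and 2 were the highest.

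The immunity-related GTPases, known in mice for attacking the vacuoles of intracellular pathogens, had positive fold changes on the GENCODE lines of 7 of 7 members, between 0.085 and 0.38, and none reached an unadjusted p under 0.05. Igtp, of the regulatory branch, had 4527, 4346 and 6380 in RORγt+ libraries against 4211, 3743 and 3890 in CCR6+RORγt- libraries, and Irgm1 had 1866, 1694 and 1717 in RORγt+ libraries against 1561, 1543 and 1551 in CCR6+RORγt- libraries. These 2 did not overlap (log2 fold changes 0.34 and 0.18, adjusted p = 0.533 and 0.643). Ifi47 had 2503, 2216 and 4409 in RORγt+ libraries and 2323, 2197 and 2176 in CCR6+RORγt- libraries, with replicate 3 far above the rest. Tgtp1 had 2579, 2353 and 2330 in RORγt+ libraries and 2173, 1932 and 2467 in CCR6+RORγt- libraries. Irgm2, Iigp1 and Tgtp2 had fold changes of 0.27, 0.12 and 0.085.

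Several of these GTPases cannot be counted apart with confidence. Of the Tgtp2 windows 90.5%, and of the Tgtp1 windows 84.4%, occur in other genes, chiefly in each other, and Igtp overlaps Irgm2 on the same strand. The table also held 4 lines under identifiers that were not found in GENCODE M21, of which 2 are named Tgtp2, 1 Ifi47 and 1 Irgm1. The largest, named Tgtp2, had 2290, 2061 and 2527 in RORγt+ libraries and 1968, 2189 and 2155 in CCR6+RORγt- libraries. The Tgtp2 line that GENCODE holds had 378, 358 and 303 in RORγt+ libraries and 351, 293 and 335 in CCR6+RORγt- libraries. The second line of Irgm1 had 37.0, 0 and 0 in RORγt+ libraries and 25.6, 22.7 and 21.4 in CCR6+RORγt- libraries, with a fold change of −2.85 (−6.00 to 0.31). The other Tgtp2 line and the second Ifi47 line had means under 50 in each sort, with fold changes of 0.22 and 0.71. Summed by symbol, Tgtp2 had 2695, 2452 and 2883 in RORγt+ libraries and 2361, 2501 and 2526 in CCR6+RORγt- libraries, and the groups still overlapped. No member was called when symbols were summed.

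The IFITM proteins, which block fusion of viruses in endosomes, were at the low end. Ifitm3 had 48.0, 75.9 and 27.4 in RORγt+ libraries and 38.7, 29.9 and 15.6 in CCR6+RORγt- libraries, and Ifitm2 had 28.9, 18.0 and 58.4 in RORγt+ and 39.7, 30.8 and 45.8 in CCR6+RORγt- libraries. Ifitm1 had 0, 1.42 and 2.79 in RORγt+ and 0, 9.15 and 3.67 in CCR6+RORγt- libraries, so a few reads set its value. The intervals of these 3 fold changes were among the 5 widest of the members, from −3.16 to 1.58 for Ifitm1, and each included 0.

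Ly6a (Sca-1, a membrane-anchored protein of stem cells and activated T cells that both interferon types induce, chr15:74994877-74998031) showed the largest fold change among the members. It had 1718, 1989 and 3734 normalized counts in RORγt+ libraries against 1155, 1178 and 1047 in CCR6+RORγt- libraries. All RORγt+ values lay above all CCR6+RORγt- values, and replicate 3 stood far above its own group mates. The means were 2480 ± 1094 and 1127 ± 70.2 (SD, n = 3 each), and the log2 fold change was 1.05 ± 0.28 (SE, 95% interval 0.41 to 1.70, limma adjusted p = 0.221). Without RORγt+ replicate 3 the fold change was smaller, 0.72, and passed the threshold (adjusted p = 0.0469), where 1.09% of all genes were called. It also passed with libraries weighted by their noise (0.79, adjusted p = 0.0471), and over all 17 alternatives the adjusted p ran between 0.0469 and 0.597. Of the Ly6a windows, 31.9% occur in other genes, chiefly its relative Ly6c1, which had 483, 476 and 767 in RORγt+ and 682, 686 and 759 in CCR6+RORγt- libraries.

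Ly6e, a related surface protein that limits entry of some viruses, had 14046, 13341 and 29796 in RORγt+ libraries and 14733, 15569 and 13877 in CCR6+RORγt- libraries. Replicate 3 alone lay above the rest, and the fold change was 0.27 with it and −0.10 without it.

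**Figure D3:**
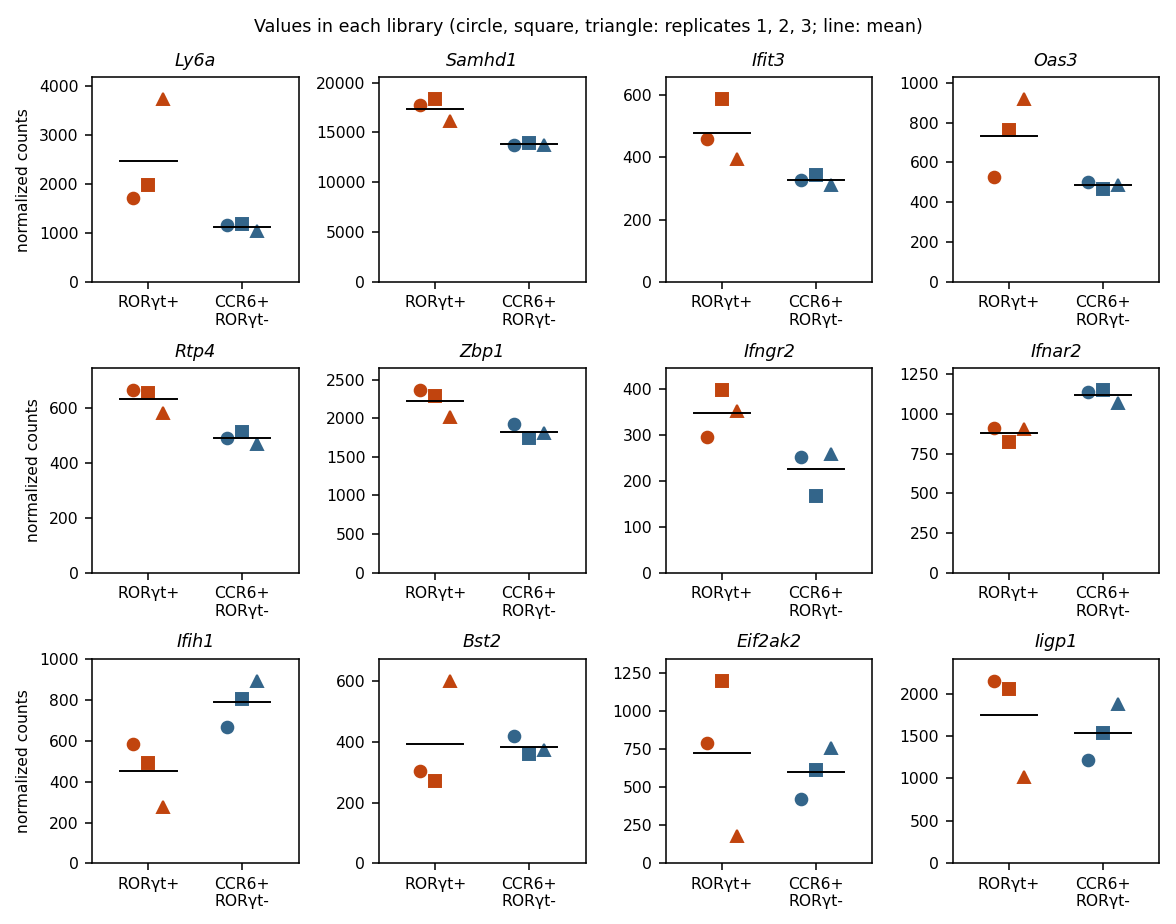
Normalized counts in each of the 3 RORγt+ (left) and 3 CCR6+RORγt- (right) libraries for 12 members, with replicates 1, 2 and 3 as circle, square and triangle and the group mean as a line; each axis starts at 0. The first 9 panels show members whose groups do not overlap, and in Bst2, Eif2ak2 and Iigp1 the RORγt+ replicate 3 lies far from replicates 1 and 2.

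Per kilobase of the longest annotated transcript, Ly6e was the most abundant member, with 8357 normalized counts per kilobase in RORγt+ and 6456 in CCR6+RORγt- libraries. Samhd1 followed with 4428 in RORγt+ and 3515 in CCR6+RORγt- libraries, then Igtp and Ly6a, and Ifi47, Ifngr1 and Tgtp1 came after these over all libraries. At the other end stood Ifitm1 (1.59 in RORγt+ and 4.85 in CCR6+RORγt- libraries), Ifi44, Oas2 and Mx2. The range of levels between members was far wider than the difference between the sorts in any member.

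RORγt+ replicate 3 lay outside the other libraries in both directions, in members about as often as in all genes. It was the highest of the 6 libraries in 13 members (27.9% of all genes) and the lowest in 11 (29.1% of all genes). It lay outside the range of the other 5 in 53.3% of members and in 57.0% of all genes. The 13 included Ly6e, Ly6a, Bst2, Ifi47, Igtp and Oas3, and had a median transcript GC content of 52.0% and a median length of 2022 bases. The 11 included Eif2ak2, Iigp1, Ifit1, Ifit2, Trim30a and Ifih1, with medians of 43.9% and 3385 bases. Over 10308 genes with a mean of at least 50, the shift of this library against its group mates had a rank correlation of 0.56 with GC content and −0.32 with length. The other libraries had such correlations as well, from −0.53 to 0.44 with GC content. These are across genes, which are not independent replicates, and their part in the members' values was not tested beyond the GC and length correction above. CCR6+RORγt- replicate 2, the library rich in red cell transcripts, was the lowest of the 6 in 17 of 45 members, against 9.61% of all genes.

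**Figure D4:**
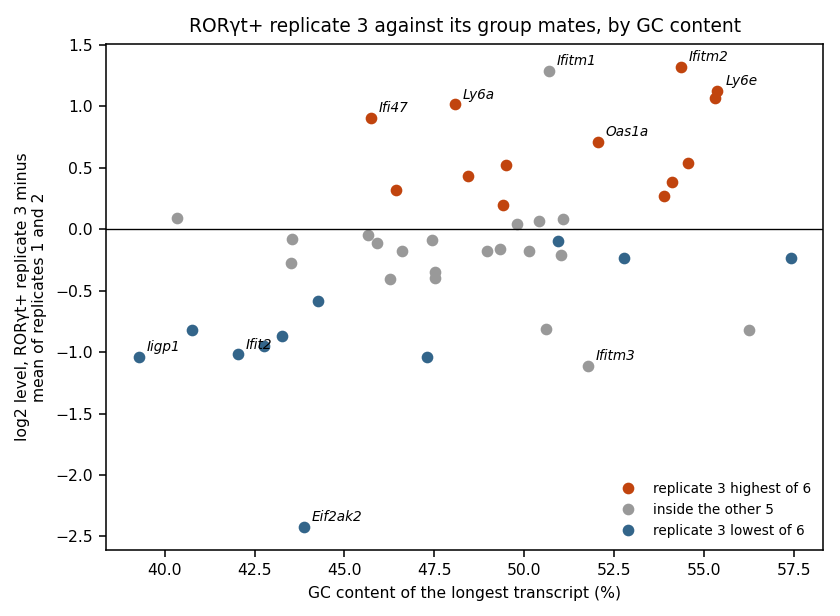
Log2 level of each member in RORγt+ replicate 3 minus the mean of RORγt+ replicates 1 and 2, against the GC content of its longest transcript in percent; colours mark where replicate 3 was the highest (13 members), the lowest (11) or inside the range of the other 5 libraries. Eif2ak2, Ifitm3, Mx1, Iigp1 and Ifit2 lie at least 1 below 0, and Ifitm2, Ifitm1, Ly6e, Bst2 and Ly6a at least 1 above it. Members of similar GC content lie on both sides.

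Without RORγt+ replicate 3 most fold changes were again above 0, in 34 of 45 members (50.3% of all genes), with a median of 0.20. Limma then called Ly6a and no other member, and 17 members with a positive fold change had an unadjusted p under 0.05, where 9.03% of all genes did. RORγt+ replicates 1 and 2 lay above all CCR6+RORγt- libraries in 24 members, against 18.5% of all genes, and below them in 5, against 18.4%.

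Other genes of the interferon pathway were read from lists chosen for their known roles. Of 77 further interferon-stimulated genes measured, 0 passed limma's adjusted threshold and 5 had an unadjusted p under 0.05 (6.49%, against 10.9% of all genes), and the median log2 fold change was 0.020. Values did not overlap in 14 of the 77, with RORγt+ on top in 11 (background 8.31%) and below in 3 (background 9.81%). RORγt+ replicate 3 was the lowest of the 6 libraries in 39 of the 77 (29.1% of all genes) and the highest in 11 (27.9% of all genes). It lay outside the range of the other 5 in 64.9% of the 77, against 57.0% of all genes, which limits the reading of their median. Cmpk2, a nucleotide kinase next to Rsad2, had 245, 335 and 194 in RORγt+ libraries against 143, 166 and 158 in CCR6+RORγt- libraries. Tdrd7, which interferes with autophagy used by viruses, had 111, 74.3 and 83.9 in RORγt+ libraries against 187, 186 and 202 in CCR6+RORγt- libraries (−1.11 ± 0.22, SE, adjusted p = 0.101). Tdrd7 passed with array weights (adjusted p = 0.0364), within a range of 0.0364 to 0.424 over 17 alternatives. Ifi27l2a (2478, 2573 and 2868 in RORγt+ against 2105, 2059 and 1719 in CCR6+RORγt- libraries) and Tor3a (268, 328 and 364 in RORγt+ against 468, 439 and 471 in CCR6+RORγt- libraries) also did not overlap.

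Of 15 measured signalling genes, 0 passed over all genes and 4 had an unadjusted p under 0.05 (26.7%, against 10.9% of all genes). Their median log2 fold change was −0.13, with 11 of 15 below 0. All RORγt+ values lay below all CCR6+RORγt- values in 4 (background 9.81%) and above them in 2 (background 8.31%). Interferon-γ itself, Ifng, had 1.04, 2.97 and 7.43 in RORγt+ libraries against 34.6, 36.5 and 33.0 in CCR6+RORγt- libraries. Every RORγt+ value was far below every CCR6+RORγt- value, though a few reads set the RORγt+ values. The log2 fold change was −3.12 ± 0.57 (SE, limma adjusted p = 0.0812), and it passed without RORγt+ replicate 3 (−3.65, adjusted p = 0.0259), with a pseudocount of 5 (adjusted p = 0.0405) and with array weights (adjusted p = 0.01), within a range of 0.01 to 0.365 over 17 alternatives. Ptpn11, the phosphatase SHP-2, had 1120, 1161 and 1322 in RORγt+ libraries against 1694, 1903 and 1789 in CCR6+RORγt- libraries (−0.58, adjusted p = 0.128, 0.0395 without RORγt+ replicate 3, and 0.0186 to 0.517 over the alternatives). Socs3, an inhibitor of cytokine signalling, had 1166, 1463 and 1370 in RORγt+ libraries against 920, 918 and 846 in CCR6+RORγt- libraries.

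Of the transcription factors that carry the interferon signal, Stat2 averaged 1397 ± 37.6 in RORγt+ and 1111 ± 126 in CCR6+RORγt- libraries (SD, n = 3 each). Irf9 averaged 2098 ± 28.5 in RORγt+ and 1926 ± 161 in CCR6+RORγt- libraries. Stat2 did not overlap between the sorts (log2 fold change 0.34) and Irf9 did, and neither passed the test, with limma adjusted p of 0.409 for Stat2 and 0.775 for Irf9. Among 13 genes of nucleic acid sensing upstream of interferon, 0 passed and 0 had an unadjusted p under 0.05, and Ticam1 was the 1 gene whose values did not overlap.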

How the data were processed

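Bulk RNA-seq of 3 RORγt+ and 3 CCR6+RORγt- Treg samples was used. The submitters' processing notes list Salmon 1.2.0, DESeq2 and the build GRCm38 but assign them no role. The sources used here do not give the annotation, filters, import step or strand setting. The deposited signal values are normalized counts per gene, not raw reads, so no count-based test was used. Column totals divided by the spacing of low values gave the approximate depth, and no interval for counting error is given.

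Values were analysed as log2(value + 1) with limma 3.58.1 in R 4.3.3 (group as the only term, trended empirical Bayes, two-sided, Benjamini-Hochberg adjusted p under 0.05 over all 15944 genes, no filter). The fit was checked on simulated counts. Fold changes understate changes of low genes. Positions, transcript lengths and 31-base windows shared with other genes came from GENCODE M21 (GRCm38), and promoters from RefSeq (GRCm38.p6).

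The members, lists and tests were chosen with earlier results of these data known. Values per library are printed for members whose groups do not overlap, the 12 smallest unadjusted p, the receptors and up to 3 members of each role with the highest means; Mx1, Bst2, Isg15 and Usp18 were added after their values were seen. Alternatives were other pseudocounts, scalings, a filter, array weights, robust variances, a replicate block, each library left out and, chosen after seeing the data, symbols summed and a GC and length correction.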

Additional observations from a re-analysis of the deposited data

How the results depend on the processing

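Of 494 fold changes of members under settings that keep all libraries, 487 kept their direction and their side of the threshold. The number of members called higher was 0 in each of these settings except array weights (1, Ly6a), and the number called lower was 0 except with the GC and length correction (1, Ifih1). Leaving out 1 library gave 0 to 1 members called higher and 0 called lower. Over all genes the count of 90 calls became 358 with array weights, 175 with the GC and length correction and 1 with a replicate block, and lay between 4 and 174 with 1 library left out (174 without RORγt+ replicate 3, and 4 to 10 without any other library). Calls in the other interferon pathway lists were 1 with pseudocount 5 and 3 with array weights, and 0 to 2 with 1 library left out; the cause was not tested. The median fold change of the members ranged from 0.13 to 0.21 over the fits run. For replicates 1, 2 and 3, the deviations of the 2 libraries that share a number correlated at −0.17, −0.045 and −0.28. Single libraries also shifted with GC content and length, which could hide a shared source. These correlations therefore cannot decide whether the numbers pair libraries. Under the replicate block no member was called.

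The sign turned with upper-quartile scaling for Ddx58 (−0.012), Mx1 (−0.038) and Xaf1 (−0.018), and with array weights for Eif2ak2 (0.57) and Ly6e (−0.037). It also turned in 14 members when 1 library was left out, with log2 fold changes between −0.21 and 0.0092 for Ifnar1, −0.012 and 0.096 for Ddx58, −0.62 and 0.74 for Eif2ak2, −0.27 and 0.13 for Oas1a, −0.14 and 0.43 for Ifit2, −0.32 and 0.36 for Mx1, −0.13 and 0.25 for Rsad2, −0.42 and 0.16 for Bst2, −0.16 and 0.0071 for Isg20, −0.46 and 0.34 for Ifi44, −0.021 and 0.061 for Xaf1, −0.064 and 0.47 for Iigp1, −0.72 and 0.10 for Ifitm2, and −0.10 and 0.48 for Ly6e. Genes at a few normalized counts, such as Ifitm1 (0 to 9.15 over the libraries), rest on few reads and allow no statement on a difference.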
